A study of Mus musculus with 5 samples.

Results

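The transcripts described here belong to 10 genes of the ATF4 branch and of the unfolded protein response: Atf4, Ddit3, Atf3, Trib3, Asns, Sesn2, Xbp1, Hspa5, Herpud1 and Dnajb9. They were taken by symbol from the 19938 genes that had at least 1 probe set assigned to a single gene, and each of the 10 had exactly 1 such probe set. Liver RNA of 5 male wildtype C57BL/6N mice, 5 to 6 months old, was hybridised to Affymetrix arrays that probe whole transcripts, with a separate array for every animal. All 5 mice had been given streptozotocin, a toxin of pancreatic beta cells used to induce type 1 diabetes, by intraperitoneal injection of 65 mg/kg on 5 successive days at an age of 10 to 16 weeks. All 5 then ate chow with bezafibrate, a lipid-lowering fibrate that activates PPAR receptors, for 8 weeks, beginning 2 weeks after the toxin. The labels name food with 0.25% and with 0.5% bezafibrate and do not say which of these a mouse ate, so the amount eaten and the age at injection cannot be told apart from whatever else set the animals apart. Mice with only 1 of these treatments, or with none, were not analysed here. The values thus describe levels and their spread among animals given both compounds, and hold no effect of either.

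Cells answer a load of unfolded protein in the endoplasmic reticulum (ER) through the sensors PERK, IRE1 and ATF6. PERK, like other kinases that sense amino acid shortage, heme shortage or viral RNA, phosphorylates the translation factor eIF2 alpha, which lowers general protein synthesis while the transcription factor ATF4 is translated more. ATF4 then turns on genes of amino acid supply and of stress signalling. IRE1 splices the Xbp1 mRNA so that an active transcription factor is made, and ATF6 is cut free from the membrane. Both turn on chaperones and the machinery that removes misfolded proteins. Hepatocytes secrete large amounts of protein and depend on these branches. ATF4 is controlled largely at translation and XBP1 by splicing, and 1 array value for all transcripts of a gene measures neither.

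The DNA in front of some of these genes holds the short sequences that the factors are known to bind. Promoters of all 10 genes were taken from RefSeq (build GRCm38.p6), as 250 bases before and 50 after the start of transcription, and were searched on both strands. The ATF4 and C/EBP composite TGATGCAA lay in 2 of the 10, Atf3 and Herpud1, against 0.895% of 32851 promoters of the same length. The looser TGATGNAA, which includes every match of those letters and was added after the data were seen, lay in 4 of the 10, with Asns and Trib3 in addition, against 3.97% of all promoters. The ER stress response element, CCAAT and CCACG with 9 bases of any kind between them, lay in Hspa5 alone (0.119% of all promoters) and its second form, ATTGG and CCACG with 1 base between them, in Herpud1 alone (0.0365%). TGACGTGG, the unfolded protein response element, was found in 0 of the 10 (0.676% of all promoters), as was TGACGTCA, the cAMP response element (1.79%). These matches are descriptions of the letters and not measured binding sites.

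The 250 bases upstream are shown for the 4 genes with a match in that stretch, on the strand of the gene, with the matches in capitals. That of Asns (GRCm38.p6 chr6:7693210-7693459, minus strand) holds TGATGAAA from base -23, counted back from the start of transcription. In Atf3 (chr1:191183334-191183583, minus strand) the composite lies on the opposite strand, read as TTGCATCA from base -110. Herpud1 (chr8:94386179-94386428, plus strand) holds it the same way from base -112, and the second ER stress form from base -52. Hspa5 (chr2:34771840-34772089, plus strand) holds the first ER stress form from base -65. The Trib3 match begins at base 15 of the transcript and is not shown.
Asns: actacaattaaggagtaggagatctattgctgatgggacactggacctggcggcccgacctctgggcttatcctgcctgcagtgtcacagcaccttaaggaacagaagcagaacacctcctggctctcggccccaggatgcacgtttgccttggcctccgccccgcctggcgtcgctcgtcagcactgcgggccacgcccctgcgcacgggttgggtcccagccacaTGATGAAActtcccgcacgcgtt
Atf3: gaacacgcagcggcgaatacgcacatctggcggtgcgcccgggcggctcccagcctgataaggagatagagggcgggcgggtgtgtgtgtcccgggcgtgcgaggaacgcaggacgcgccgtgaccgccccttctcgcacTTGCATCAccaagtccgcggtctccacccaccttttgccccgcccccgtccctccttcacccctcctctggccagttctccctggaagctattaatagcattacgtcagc
Herpud1: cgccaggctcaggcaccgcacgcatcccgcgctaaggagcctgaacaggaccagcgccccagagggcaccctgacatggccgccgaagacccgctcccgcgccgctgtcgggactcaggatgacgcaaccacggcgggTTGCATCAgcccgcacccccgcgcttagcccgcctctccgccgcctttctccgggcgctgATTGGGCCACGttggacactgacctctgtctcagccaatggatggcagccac
Hspa5: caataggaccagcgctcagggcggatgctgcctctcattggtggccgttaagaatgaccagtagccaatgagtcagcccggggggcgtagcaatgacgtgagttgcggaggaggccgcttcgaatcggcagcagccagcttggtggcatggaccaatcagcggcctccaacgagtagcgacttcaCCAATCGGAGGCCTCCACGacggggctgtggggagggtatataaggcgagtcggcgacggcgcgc

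All 10 genes were above background in all 5 livers. Values are on the log2 scale, so that 1 unit stands for a 2-fold change in brightness, and the background was set on each array at the 95th percentile of 1210 probe sets of odorant and vomeronasal receptor genes (5.59 to 6.07). Brightness depends on the probes, so levels of different genes were not compared. The arrays were alike in their medians (6.22 to 6.31) and pairwise correlations across probe sets (Pearson's r 0.971 to 0.993, where probe sets are not independent). Array 4 stood somewhat apart. The median tested gene deviated there by -0.06 from its mean over the mice, against -0.0064 to 0.03 on the other arrays. Of 13336 tested genes, 36.5% were lowest in mouse 4. Array 4 also had the highest background, 6.07 against 5.59 to 5.79 on the others. Whether low values in mouse 4 belong to the array or to the liver was not tested. Hepatocyte markers, with Alb at 13.64 ± 0.05 (SD, n = 5), were all 10 above background in every liver.

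The spread of each gene between livers was tested as a variance, against the variance that limma's robust fit expects at the same level. Of the 10 genes, 0 passed after Benjamini-Hochberg adjustment over 14586 probe sets, where 52, or 0.357%, passed in all. Asns, Atf3 and Herpud1 (3 of 10) had an unadjusted p under 0.05, against 6.38% of tested genes. That count was 1, Asns alone, with probe sets of any annotation, and 2 or 3 in every other setting run. The SD was above the expected SD for 9 of 10 genes, against 47.0% of all tested genes, and Atf4 was the exception. The median SD of the 10 was 0.175, against 0.117 over all tested genes, and their median span, the highest over the lowest liver, was 1.38-fold, against 1.22-fold. A single liver set apart from the other 4, by Dixon's ratio at its 95% bound, was seen in 0 of the 10 and in 5.65% of tested genes. None of the 13 other settings of the limma test called any of the 10, with adjusted p values of at least 0.125. On simulated data this step recovered most genes only at the widest spread tried. The lack of calls therefore cannot show that the 10 genes vary no more than expected.

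**Figure D1:**
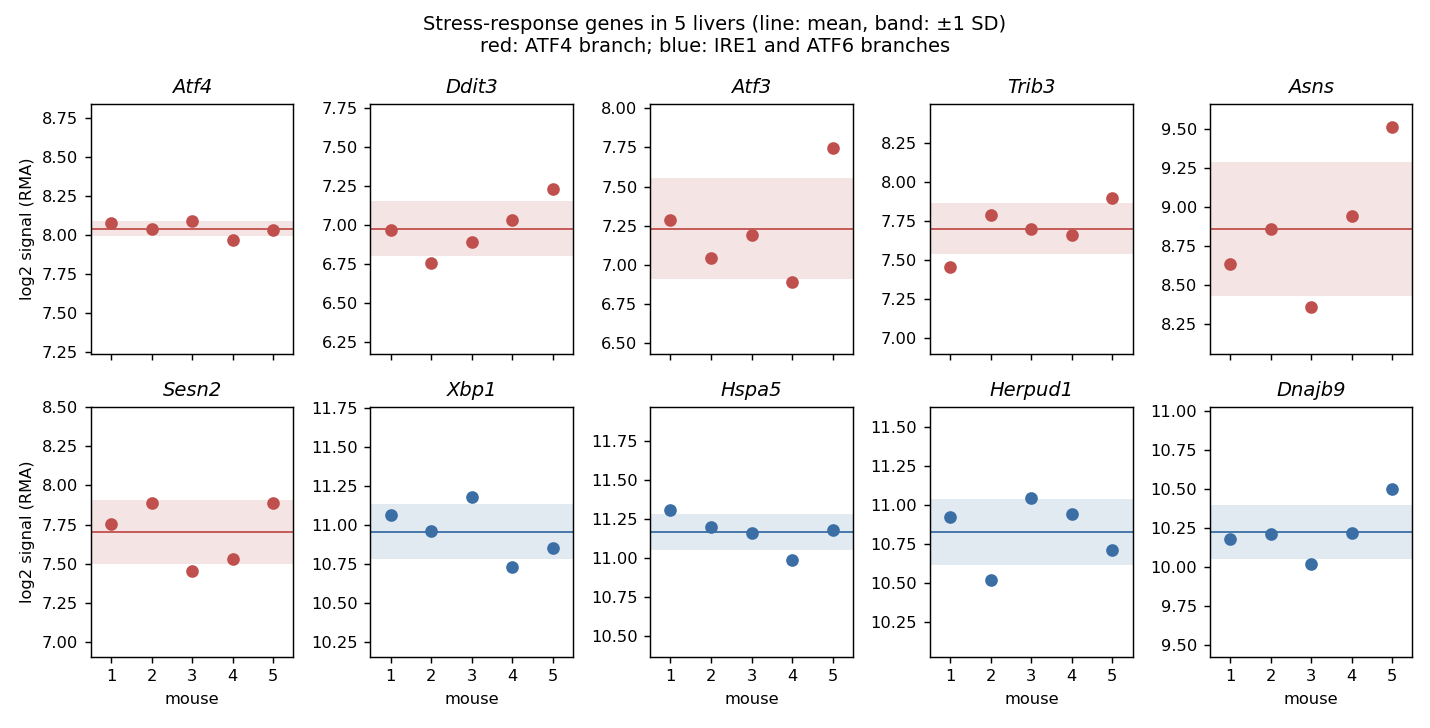
Each panel shows 1 gene, with the mouse on the x axis and the log2 RMA signal on the y axis, which spans the same height in every panel. Points are single livers, the line is the mean and the band 1 SD on each side. Asns has the widest band (SD 0.43) and Atf4 the narrowest (0.05), and mouse 5 has the top point in 6 of the 10 panels.

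Atf4 itself differed least between the livers. This gene of the transcription factor that gives the branch its name had 8.08, 8.04, 8.09, 7.97 and 8.04 in mice 1 to 5, a mean of 8.04 ± 0.05 (SD, n = 5) and a 1.09-fold span. Its SD lay at the 4.89th percentile of all tested probe sets, and its variance was 0.139 times the expected one (limma adjusted p = 1.00). Of the 10 genes it had the smallest SD.

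Ddit3 and Atf3 encode transcription factors made downstream of ATF4. Ddit3, also called CHOP, is known for its part in cell death under lasting ER stress, and had 6.97, 6.76, 6.90, 7.03 and 7.23 in mice 1 to 5 (mean 6.98 ± 0.17, SD, n = 5). The span was 1.39-fold, with mouse 5 highest and mouse 2 lowest, and the variance was 1.79 times the expected one (limma adjusted p = 0.992). Atf3, which is also switched on within minutes to hours by many other stimuli, was at 7.29, 7.04, 7.19, 6.89 and 7.75 (mean 7.23 ± 0.32). Mouse 5 was thus 0.46 above the next liver, and mouse 4 was lowest. The span of Atf3 was 1.81-fold and its variance 6.22 times the expected one (limma adjusted p = 0.598). Without mouse 5 the SD of Atf3 was 0.17.

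Trib3, Asns and Sesn2 are target genes of ATF4 with separate tasks. Asns encodes asparagine synthetase, a classic gene of the response to amino acid shortage, and had the widest spread of the 10, with 8.63, 8.86, 8.36, 8.94 and 9.51 in mice 1 to 5 (mean 8.86 ± 0.43, SD, n = 5). Mouse 5 was 0.57 above mouse 4, the next liver, and mouse 3 was lowest, which gave a 2.23-fold span. A span of at least 2-fold was seen in 1 of the 10 genes, Asns, and in 1.78% of all tested genes. The variance of Asns was 13.7 times the expected one (limma adjusted p = 0.224) and its ratio lay at the 98.6th percentile of tested probe sets. Without mouse 5 its SD was 0.26 and its adjusted p 0.703.

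The pseudokinase gene Trib3, whose product binds and restrains AKT and ATF4, had 7.46, 7.79, 7.70, 7.66 and 7.90 (mean 7.70 ± 0.16, SD, n = 5). Here mouse 1 was the low one, and without it the SD was 0.11 (limma adjusted p = 0.992 with all mice). Sesn2 encodes sestrin 2, which restrains mTORC1 signalling when leucine is scarce and is also a target of p53 and NRF2. It had 7.76, 7.89, 7.45, 7.53 and 7.89 (mean 7.70 ± 0.20), so mice 2 and 5 were level at the top, 0.002 apart, and mice 3 and 4 were low (limma adjusted p = 0.987). The spans of Trib3 and Sesn2 were both 1.36-fold.

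Xbp1 and Hspa5 stand for the ER branches, Xbp1 as the transcription factor gene downstream of IRE1 and Hspa5 as the gene of BiP, the main ER chaperone, which holds the sensors inactive. Xbp1 had 11.06, 10.96, 11.18, 10.73 and 10.85 in mice 1 to 5 (mean 10.96 ± 0.17, SD, n = 5, limma adjusted p = 0.943). Mouse 3 was highest and mouse 4 lowest, 1.36-fold apart, and mouse 5 lay below the mean. Hspa5 had 11.31, 11.20, 11.16, 10.99 and 11.18 (mean 11.17 ± 0.12), with a 1.25-fold span and mouse 1 highest. Its SD lay at the 49.0th percentile of all tested probe sets (limma adjusted p = 0.992), and without mouse 4 it was 0.07.

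Herpud1 and Dnajb9 serve the removal and refolding of proteins in the ER. Herpud1, a membrane protein of the complex that sends misfolded proteins to the proteasome, had 10.92, 10.52, 11.04, 10.94 and 10.71 in mice 1 to 5 (mean 10.83 ± 0.21, SD, n = 5). Mice 2 and 5 were low and mouse 3 high, a 1.44-fold span with a variance 4.71 times the expected one (limma adjusted p = 0.763). Without mouse 2 its SD was 0.14. Dnajb9, also called ERdj4, is a co-chaperone of BiP that restrains IRE1, and had 10.18, 10.21, 10.02, 10.22 and 10.50 (mean 10.23 ± 0.17, limma adjusted p = 0.969). Its order of mice had mouse 5 at the top by 0.28 and mouse 3 at the bottom, as in Asns and unlike Xbp1 and Herpud1. Without mouse 5 the SD of Dnajb9 was 0.09.

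**Figure D2:**
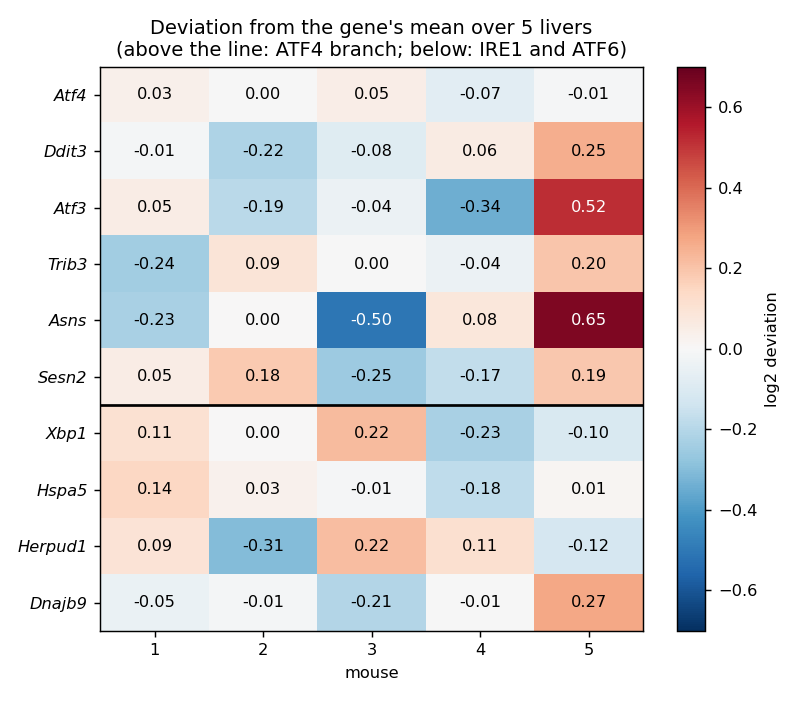
Rows are the 10 genes, columns the mice, and colour and number give the log2 deviation of a liver from the mean of that gene over the 5 livers. In the mouse 5 column, Asns (0.65) and Atf3 (0.52) are highest, with Dnajb9 (0.27), Ddit3 (0.25), Trib3 (0.20) and Sesn2 (0.19) following, while Xbp1 (-0.10) and Herpud1 (-0.12) lie below 0.

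Mouse 5 carried the highest value of 6 of the 10 genes, namely Asns, Atf3, Ddit3, Trib3, Sesn2 and Dnajb9, against 19.2% of all tested genes. With each array centred on its median the count was 5, since mouse 2 then led in Sesn2, and with quantile normalization it was 6. Mouse 5 was the lowest liver for 0 of the 10, against 21.6% of all tested genes, and mouse 4 for 4 of the 10, against 36.5%. Averaged over the 6 genes of the ATF4 branch, the deviations were -0.06, -0.02, -0.14, -0.08 and 0.30 in mice 1 to 5, against a median tested gene at 0.03, 0.03, 0.0074, -0.06 and -0.0064. The SD of these 5 deviations was 0.173, and without mouse 5 it was 0.0492. In mouse 5 Asns (0.65) and Atf3 (0.52) deviated most, and the median over the 6 genes was 0.23. Herpud1, whose promoter also holds the composite, was not among the 6 and deviated by -0.12 there. The mean over all 10 genes in mouse 5 was 0.19. Averaged over Xbp1, Hspa5, Herpud1 and Dnajb9, the deviations were 0.07, -0.07, 0.06, -0.07 and 0.02, so mouse 5 did not lead there. In bulk liver, a change in a cell's RNA and a change in the number of such cells cannot be told apart.

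Markers of other cell types were set beside these deviations. In mouse 5 the mean deviation was 0.08 for 12 Kupffer cell and macrophage markers, -0.03 for 10 hepatocyte markers, -0.0094 for 8 endothelial, -0.05 for 9 stellate cell and fibroblast and 0.10 for 4 cholangiocyte markers. The largest in size there were -0.30 for 2 erythroid and -0.18 for 5 skeletal muscle markers, and the other five lists lay between -0.04 (adipocyte) and 0.07 (neutrophil). The macrophage list deviated by 0.33, -0.16, -0.04, -0.21 and 0.08 in mice 1 to 5, so mouse 1 led there and mouse 4, where Atf3 was lowest, was lowest. Of its 12 genes 10 were highest in mouse 1. Only 1 of the 12, Vsig4, the brightest, was highest in mouse 5 (11.08), the liver where Atf3 was highest. Another 1, Cd163, was lowest there. Mouse 1, where Hspa5 was highest and Trib3 lowest, also had the largest deviations of any marker list, 0.52 for skeletal muscle and 0.45 for erythroid markers. Mouse 3, where Xbp1 and Herpud1 were highest, had deviations of 0.32 for the erythroid, 0.19 for 3 adipocyte and 0.14 for 4 B and plasma cell markers, where plasma cells are known for high XBP1. Of the 4 tested B and plasma cell markers, out of 8 measured, 3 were highest in mouse 3, and the brightest, Cd79b, had a mean of 7.14. Cd79b deviated most there (0.34), against 0.12 for Derl3 and 0.07 for Mzb1. Derl3 is also a gene of ER-associated degradation. The remaining tested marker, Pou2af1, deviated by 0.05 in mouse 3 and was highest in mouse 4, where Xbp1 was lowest. The markers Jchain, Cd79a, Ms4a1 and Tnfrsf17 were above background in 0 livers. Of 11 measured pancreatic acinar markers, whose cells are also rich in these ER genes, 6 were above background in all livers, the brightest being Cela1 at 6.83 ± 0.06 (SD, n = 5), and the list deviated by 0.10 in mouse 3 and by less, on the negative side, elsewhere, with -0.04 in mice 1 and 2. The part of any of these in the spread of the 10 genes was not tested.

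**Figure D3:**
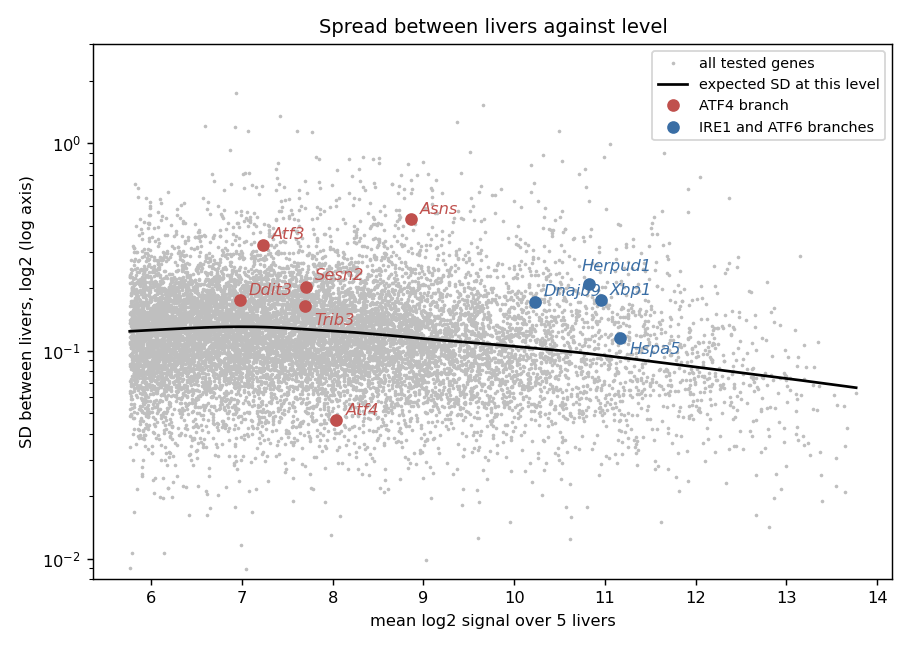
The x axis is the mean log2 signal of a gene over the 5 livers and the y axis, on a log scale, its SD between livers. Grey points are the 13336 tested genes, the black line is the SD that limma's fit expects at that level, and coloured points are the 10 genes. Asns and Atf3 lie far above the line, at SDs of 0.43 and 0.32, and Atf4 lies below it at 0.05.

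The genes whose pattern over the 5 mice came closest to that of Asns were not other genes of the 10. Likeness was the root mean square difference of the centred log2 values over the 5 mice, among 13335 other tested genes. The nearest were Tspan6 (0.0436), a tetraspanin gene, Gss (0.0548), which encodes glutathione synthetase, Tm4sf4 (0.0703), Nt5e (0.0917), which encodes the ectonucleotidase CD73, and Itih5 (0.0939). Of the 10 genes Dnajb9 came nearest to Asns, at rank 201 (0.234), while Atf3 stood at rank 1337 and Xbp1 at rank 12398. Nearest to Atf3 were Mmd2 (0.0479), Spi1 (0.0641), which encodes the myeloid transcription factor PU.1, Samd9l (0.0851), Prkx (0.0881) and Cyp1a2 (0.0902). Nearest to Herpud1 were C1s2 (0.0349), the glucose transporter gene Slc2a2 (0.0380), Dact3, Mir149 and Nptx2. With this many genes and 5 mice, close matches arise for most patterns, so the names are a description.

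Other known targets of ATF4 were highest in mouse 5 in 13 of 36 cases, or 36.1%, against 19.2% of all tested genes. Among the other pathway lists the share was 42.1% for immediate early, 40% for ER translocation and secretory and 33.3% for sensor and protease genes. It was 15.4% to 21.4% for the remaining lists, and 28.4% over all 162 tested pathway genes outside the 10. The excess was thus not particular to targets of ATF4. Of 40 listed genes of amino acid synthesis, transport, tRNA charging and stress signalling, 38 were measured and 36 tested, 0 passed and 5, or 13.9%, had an unadjusted limma p under 0.05, against 6.38% of all tested genes. Their mean deviations were 0.07, -0.02, -0.02, -0.09 and 0.05 in mice 1 to 5. Slc1a4, a transporter of alanine, serine and cysteine, had the widest spread, with 7.71, 7.78, 6.98, 7.13 and 8.14 in mice 1 to 5 (mean 7.55 ± 0.48, SD, n = 5, limma adjusted p = 0.218). Like Asns it was highest in mouse 5 and lowest in mouse 3, over a 2.22-fold span. The hormone gene Fgf21 was highest in mouse 1 (6.66) and between 5.83 and 6.01 in the others, near background (limma adjusted p = 0.537). Phgdh, of serine synthesis, ran the other way, with 6.07 in mouse 5, its lowest value, and 6.74 in mouse 4, its highest (limma adjusted p = 0.635).

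Groups of genes upstream in both branches had median SDs of 0.105 (eIF2 group) and 0.142 (sensor group), against 0.117 over all tested genes. Among 13 tested genes of the eIF2 alpha kinases, the phosphatase subunits and the exchange factor eIF2B, 0 passed and 0 had an unadjusted limma p under 0.05. The PERK gene Eif2ak3 had 7.50, 7.36, 7.34, 7.37 and 7.74 in mice 1 to 5 (mean 7.46 ± 0.17, SD, n = 5), with mouse 5 highest. Eif2b4 and Ppp1r15b, the other two of the 3 widest, had SDs of 0.18 and 0.17. The sensor group of 9 tested genes held Eif2ak3 again, the protease gene Mbtps1, whose product cuts ATF6, and ER-bound factors of the CREB3 family. Of these 9, 0 passed and 0 reached an unadjusted limma p under 0.05 either. The IRE1 gene Ern1 had 8.90, 8.75, 9.01, 8.56 and 8.77 (SD 0.17), with the same highest and lowest mouse as Xbp1. Of all tested genes, 22.9% were highest in mouse 3 and 36.5% lowest in mouse 4. The ER-bound factor gene Creb3l2 had an SD of 0.24, with mouse 5 at 8.20 and mouse 4 at 7.69.

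**Figure D4:**
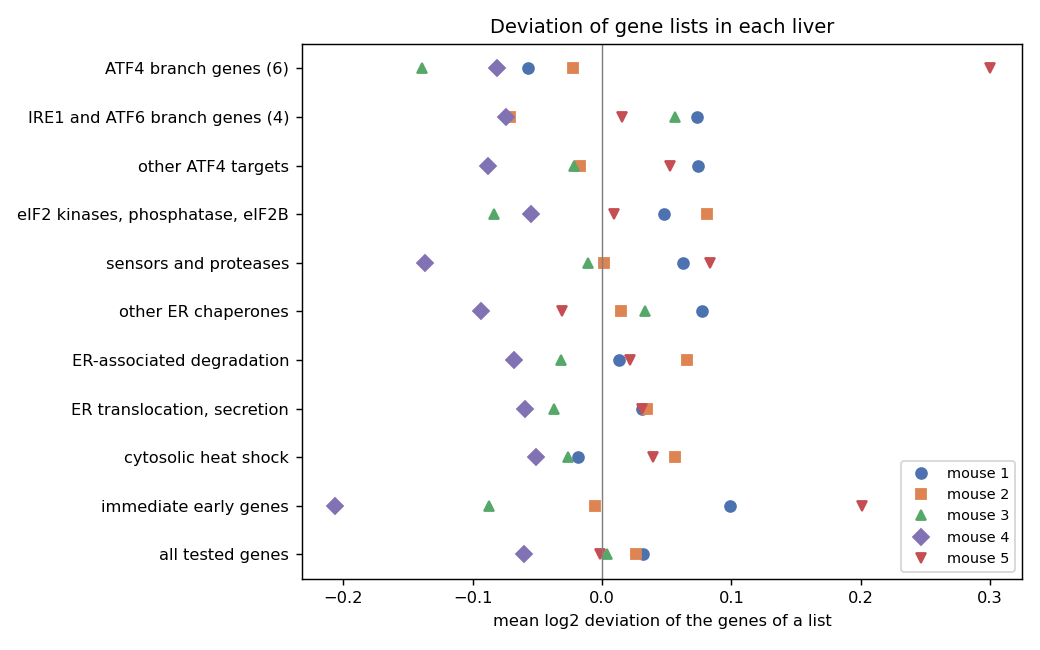
Rows are gene lists, the x axis is the mean log2 deviation of their tested genes from the mean over the 5 livers, and symbols are the mice. Mouse 5 stands at 0.30 for the ATF4 branch genes and at 0.20 for immediate early genes, and closer to 0 for the other lists shown.

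ER chaperones, degradation genes and export genes had median SDs of 0.112, 0.0948 and 0.0786, against 0.117 over all tested genes. Of 25 tested chaperones and folding enzymes other than Hspa5 and Dnajb9, 0 passed and 1, the prolyl isomerase gene Fkbp14 (SD 0.31, limma adjusted p = 0.693), had an unadjusted p under 0.05. Sdf2l1, a partner of BiP, was 8.58 in mouse 3 and 7.96 in mouse 2, its highest and lowest, as in Herpud1 (SD 0.25), and the oxidoreductase gene Ero1b had an SD of 0.19. The list deviated by 0.08, 0.01, 0.03, -0.09 and -0.03 in mice 1 to 5. Of 23 tested genes of ER-associated degradation 0 passed and 0 had an unadjusted limma p under 0.05, with Edem2 (SD 0.19), Ufd1 (0.19) and Ube2g2 (0.18) widest and deviations of 0.01, 0.07, -0.03, -0.07 and 0.02. Of 25 tested genes of translocation and secretion 0 passed and 0 had an unadjusted limma p under 0.05. Their widest, Srprb, Spcs3 and Srp14, had an SD of 0.15 each, and the list deviated by 0.03, 0.03, -0.04, -0.06 and 0.03.

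Gene groups with roles mostly outside the ER served as a comparison, since Atf3 is also an immediate early gene. Of 19 tested immediate early genes 0 passed and 7, or 36.8%, had an unadjusted limma p under 0.05, and the list deviated by 0.10, -0.0053, -0.09, -0.21 and 0.20 in mice 1 to 5. Mouse 5 was thus highest and mouse 4 lowest, as for Atf3. Myc, a growth-promoting transcription factor gene, had 7.91, 7.77, 7.68, 7.14 and 8.81 (mean 7.86 ± 0.61, SD, n = 5, limma adjusted p = 0.0987). Gadd45g (SD 0.65, limma adjusted p = 0.0830) and Gadd45b (SD 0.55, limma adjusted p = 0.112), genes of stress signalling, were the other wide ones and were highest in mouse 2. With each array centred on its median these 3 genes passed, with limma adjusted p values of 0.0142 (Gadd45g), 0.0233 (Myc) and 0.0310 (Gadd45b). In that setting 142 probe sets passed in all. The median tested gene then deviated by 0.07 in mouse 2 and -0.11 in mouse 4, against 0.03 and -0.06 in the setting reported. The list called cytosolic heat shock held 14 tested genes, although Serpinh1 acts in the ER and Hspd1 and Hspe1 in mitochondria. Of the 14, 0 passed and 1, the small chaperone gene Hspb1 (SD 0.32, limma adjusted p = 0.345), had an unadjusted p under 0.05. Bag3 and Hspa1a had SDs of 0.20 and 0.18, and the list deviated by -0.02, 0.06, -0.03, -0.05 and 0.04.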

How the data were processed

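The authors deposited 1 log2 value for every probe set on every array. RMA and Affymetrix Expression Console 1.2 are named in the submitters' processing notes, and further settings are not given in the sources used here. RMA corrects background, makes array distributions alike and summarises probes, which compresses differences near background. Of 35556 probe sets, 21789 had 1 gene symbol in the platform annotation, 1621 several and 12146 none, and only the first were named. Where a gene had several, the brightest was used. Tested were 14586 probe sets of 13336 genes with a mean above 5.77, the 95th percentile of the receptor probe sets' means.

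Each probe set was fitted with a single mean in limma 3.58.1 (R 4.3.3). An F test (upper tail) set the variance over 5 arrays, on 4 degrees of freedom, against that expected from fitFDistRobustly, with mean level as covariate and prior degrees of freedom of 6.21, and adjusted by Benjamini-Hochberg at 0.05. On simulated data the step recovered most genes only at the widest spread tried, so a gene that did not pass may still vary more than expected. The labels call the arrays biological replicates and give no batch, and the spread includes technical spread. Arrays count no molecules, so their number limits the precision. Python 3.11.15 with pandas 2.3.3 was used for the rest.

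Members and lists (8 of pathways, 12 of cell markers) were chosen with earlier results of these data known. Named were all 10 members, the 3 widest genes and any called gene of each pathway list, the 5 nearest patterns of the 3 widest members, and the brightest and widest gene of each marker list, of which those bearing on a result are printed. Alternatives were other normalizations, filters, variance fits, summaries and leaving out arrays.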

Additional observations from a re-analysis of the deposited data

Results flagged for a closer look

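In 5 livers, a value was singled out where its gap to the nearest of the others took a share of the whole range above Dixon's 95% bound, which chance gives for about 1 in 20 genes and which 5.65% of all tested genes showed. It was checked for 55 genes and 24 list deviations. None of the 10 genes passed it alone. The mean deviation of the 6 ATF4 branch genes passed with a gap of 0.733 of the range, and that of all 10 genes with 0.721, both with mouse 5 apart on the high side. The 6 genes are part of the 10, so these are not separate results. The members were chosen with earlier results of these data known, and the 5.65% is a rate for single genes, not for list averages. Both gaps are therefore descriptions only. With each array centred on its median neither list deviation passed, at 0.607 for the ATF4 branch genes and 0.52 for all 10. For all 10 the gap also missed the bound with the median over the genes (0.598) and with each gene divided by its SD (0.474), whereas the ATF4 branch genes passed with both (0.745 and 0.717). Among other genes, Fgf21 passed with 0.777, the macrophage marker Adgre1 with 0.741 and the stellate cell marker Acta2 with 0.858, all with mouse 1 high, and the T cell marker Cd8a with 0.767, with mouse 4 low and 1 array below background. The transporter genes Slc7a11 and Slc3a2, which were added after their values were seen, passed with 0.889 and 0.742, both with mouse 5 high. Pathway genes outside the checked set also had gaps above the bound. These were Lars (0.808, mouse 3 low), Eif2ak1 (0.774, mouse 5 low), Sars (0.762, mouse 5 high) and Kdelr1 (0.717, mouse 4 low). The genes of like pattern were not checked.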

How the results depend on the processing

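Under the 13 other settings of the variance test 0 of the 10 genes passed in each, and their lowest adjusted p, 0.125, was that of Asns with each array centred on its median. For Asns the limma adjusted p lay between 0.125 and 0.703, and the value of 0.703 was that without mouse 5. The count over all tested probe sets was 52 in the setting reported, 142 with arrays centred on their medians, 29 with the filter on all arrays, 24 without the trend on level, 18 without the robust step, 31 with the mean of all probe sets of a gene, and 0 with probe sets of any annotation (1385 at an unadjusted p under 0.05). Leaving out 1 array gave 0 (without mouse 4, 864 at an unadjusted p under 0.05) to 69 (without mouse 1), with 34 without mouse 2 and 30 without mouse 3. The count of other pathway genes was 0, and 3 with arrays centred on their medians. Leaving out 1 array gave 0 to 2, with Gadd45b and Gadd45g passing without mouse 5. The SD of the ATF4 branch deviation lay between 0.0492 (without mouse 5) and 0.199 (without mouse 2). The causes were not tested. No paired analysis was possible because there is a single group. Signal near background limits dim genes such as Fgf21.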

Other observations

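Slc7a11, the gene of the cystine transporter xCT and a known target of both ATF4 and NRF2, was chosen for print after its values were seen. It had 4.65, 4.71, 4.69, 4.84 and 6.38 in mice 1 to 5 and exceeded the brightness floor in 1 liver, that of mouse 5. Its mean of 5.05 lay below the filter, so it was not tested. Mouse 5 was also the liver with the highest Asns, and it had the highest value of Slc3a2 (11.69, against 11.23 to 11.35 in the others), whose product pairs with xCT. Slc3a2 had an SD of 0.19 (limma adjusted p = 0.778). Slc3a2 too was chosen after its values were seen. Of the 36 tested ATF4 targets outside the 10 genes, 13 were highest in mouse 5 and 4 were lowest there. Slc7a1 was lowest in mouse 5 (6.66), and Slc7a5 was near its mean there (7.35 against 7.36).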
